A study of Mus musculus with 2 samples.

Results

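The genes that cells switch on to copy their DNA and to divide were followed in the immune cells of mouse melanomas grown from 2 cell lines. The set was a fixed list of 55 symbols, 26 for DNA replication and 29 for mitosis, given by name and drawn up with earlier results of these data known. Rows for 53 of them were among the 12584 genes of the count table, all 26 replication genes and 27 of the 29 mitotic genes, and the other two, Ccnb1 and Hmgb2, were not analysed here. CD45+ live cells had been sorted from NTT and RTT tumours, grown by injecting YUMM3.3 melanoma cells into C57BL/6 mice and taken at day 12. YUMM3.3 cells carry mutant Braf and are Cdkn2a-/-. NTT cells had not met targeted therapy, whereas RTT cells were resistant to BRAF inhibition and were kept in dabrafenib in culture, so line, drug history and tumour changed together. Each condition was a single 10x Genomics 3′ library, without treatment of the mice in the labels. The number of tumours behind each library was not established here. No test between conditions was possible, and all intervals below cover counting error only.

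A dividing cell first licenses its replication origins by loading the MCM helicase, then fires them in S phase, when PCNA clamps the polymerases to the template and ribonucleotide reductase and thymidylate synthase feed the forks. In G2 and M phase, CDK1 with cyclins A and B drives mitotic entry, condensin and topoisomerase II fold the chromosomes, Aurora and Polo-like kinases build and check the spindle, and the anaphase-promoting complex triggers separation and exit. Macrophages in a tumour can arise from incoming monocytes and can also divide in place, while neutrophils and most mature mononuclear cells have left the cycle.

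The NTT library held 2975 cells and 19634099 UMIs (unique molecular identifiers, which count captured RNA molecules), with a median of 5398 UMIs and 1961 genes per cell. The RTT library held 4840 cells and 44712071 UMIs, with medians of 8335.5 and 2711. Cells came with the authors' names for 16 populations, and 7 barcodes occurred in both libraries. Levels are UMIs summed over cells and scaled as counts per 1000000 UMIs of those cells (CPM), and ratios are log2 of RTT over NTT with 95% binomial intervals. The population named TAM_cycling (cycling tumour-associated macrophages) was named from clusters that used these genes, so its high level against other populations is a description. The name matched its markers: the 8 macrophage markers summed to 30232 CPM in NTT and 39198 CPM in RTT TAM_cycling cells, against 22.7 and 1.31 CPM for the 7 T-cell markers.

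Both lists were concentrated in few populations. TAM_cycling cells had 3720 CPM of replication genes in NTT and 3740 CPM in RTT, and 4550 and 6248 CPM of mitotic genes. The NK_cells population, which also carried T-cell markers, was the other high population, with 3568 and 3461 CPM of replication genes and 4759 and 4342 CPM of mitotic genes. Type 1 conventional dendritic cells (cDC1), which cross-present antigen, had 907 and 1990 CPM of replication genes and 1876 and 4484 CPM of mitotic genes, so that in RTT their mitotic level reached that of NK_cells. Neutrophils of the NTT library, non-dividing cells that give a background level, had 207 CPM of replication and 227 CPM of mitotic genes. The 29 RTT cells of that name had 369 and 490 CPM, with log2 ratios of 0.83 (0.38 to 1.28) and 1.11 (0.70 to 1.51), but their 8 macrophage markers were at 42100 CPM against 5680 CPM in NTT and their 5 neutrophil markers at 16228 against 75120 CPM. Monocytes had 243 and 179 CPM in NTT, and 370 and 326 CPM in RTT, where they lay at the replication level and below the mitotic level of the RTT neutrophils. In RTT the Ctsk_Macro population, absent from NTT, had 1064 CPM of replication and 1345 CPM of mitotic genes, whereas the large TAM_C1q population had 372 and 313 CPM.

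**Figure D1:**
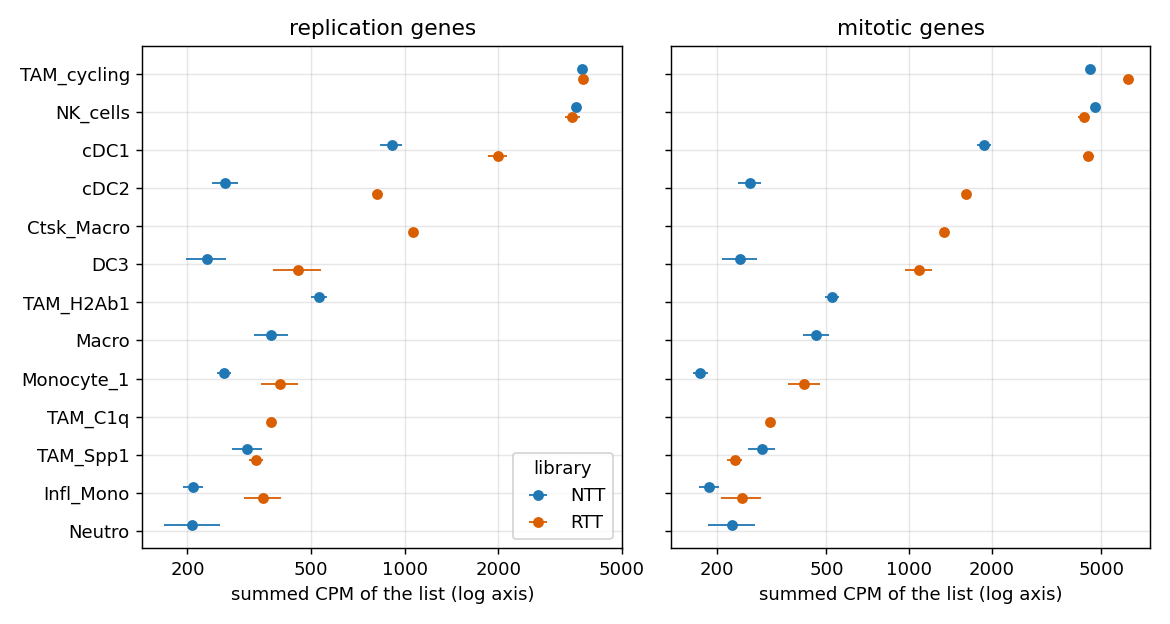
Level of the replication genes and of the mitotic genes in each population (CPM, log axis), by library, for populations with at least 50 cells, with bars for the 95% Poisson interval of the summed UMIs. TAM_cycling and NK_cells stand at the right in both libraries, joined in RTT by cDC1 for the mitotic genes, and the cDC2 and cDC1 points lie further right in RTT than in NTT.

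Single members followed the same map. TAM_cycling held the largest share of a member's UMIs for all 53 members in the RTT library, from 52.5% for E2f1 to 86.4% for Ccne2. In NTT it held the largest share for 47 of 53, up to 69.5% for Tk1, and NK_cells led for Tyms, Dut, Ccnb2, Ube2c, Nusap1 and Cenpa. Cenpa, the histone H3 variant that marks centromeres, was spread most widely, with 15.6% of its NTT UMIs in TAM_cycling. Its level was 153 CPM in NTT TAM_cycling cells, 152 CPM in TAM_Spp1, 126 CPM in DC3 and 106 CPM in cDC2, so it did not separate these populations in NTT. In RTT, Cenpa was at 204 CPM in TAM_cycling and 33.3 CPM in TAM_Spp1. No single cell held more than 9.58% of a member's NTT UMIs (Anln).

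The members used throughout as markers, Mcm5 and Pcna of the replication list and Mki67 and Top2a of the mitotic list, are shown with the 250 bases before their transcription start, because the lists differed in the promoter words they carried. The sequences are from RefSeq on GRCm38.p6, read 5′ to 3′ along the gene. Capitals mark matches on either strand to the E2F words TTCCCGC and TTGGCGC, to the CHR word TTTGAA (cell-cycle genes homology region), and to CCAAT, bound by NF-Y. An E2F word can overlap a CCAAT, but none did in these windows.
Mcm5 (chr8:75109259-75109508, plus strand): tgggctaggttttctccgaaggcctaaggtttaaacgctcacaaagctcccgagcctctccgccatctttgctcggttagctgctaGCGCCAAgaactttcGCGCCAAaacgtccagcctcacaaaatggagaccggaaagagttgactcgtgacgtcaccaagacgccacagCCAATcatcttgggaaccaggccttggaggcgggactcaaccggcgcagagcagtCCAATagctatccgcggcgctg
Pcna (chr2:132253181-132253430, minus strand): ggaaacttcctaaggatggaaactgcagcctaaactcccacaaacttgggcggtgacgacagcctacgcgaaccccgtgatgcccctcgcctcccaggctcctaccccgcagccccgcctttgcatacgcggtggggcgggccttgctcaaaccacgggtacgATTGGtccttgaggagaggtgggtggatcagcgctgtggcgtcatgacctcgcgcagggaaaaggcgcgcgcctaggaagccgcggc
Mki67 (chr7:135716380-135716629, minus strand): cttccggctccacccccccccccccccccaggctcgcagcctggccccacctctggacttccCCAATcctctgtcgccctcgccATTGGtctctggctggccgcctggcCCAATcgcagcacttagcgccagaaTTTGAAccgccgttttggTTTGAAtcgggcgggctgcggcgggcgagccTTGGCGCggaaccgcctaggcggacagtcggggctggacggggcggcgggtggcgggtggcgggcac
Top2a (chr11:99024190-99024439, minus strand): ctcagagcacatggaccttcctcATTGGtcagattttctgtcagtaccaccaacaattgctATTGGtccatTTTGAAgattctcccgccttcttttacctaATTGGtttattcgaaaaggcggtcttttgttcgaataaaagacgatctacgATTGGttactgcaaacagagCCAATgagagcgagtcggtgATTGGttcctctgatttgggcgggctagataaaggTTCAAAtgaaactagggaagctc

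Mcm5 held 2 E2F words and 2 CCAAT, and Pcna a single CCAAT. Mki67 held 1 E2F word, 2 CHR and 3 CCAAT, and Top2a held 2 CHR and 6 CCAAT with no E2F word. Over the 45 measured members with a promoter in the RefSeq table, E2F words were present in 9 of 23 replication promoters (39.1%) and in 2 of 22 mitotic promoters (9.09%), against 5.71% of all 27025 promoters. The CHR word and CCAAT stood together in 3 replication promoters (13.0%) and 8 mitotic promoters (36.4%), against 5.73% of all. CCAAT, with or without the CHR word, was common, in 52.2% of replication, 77.3% of mitotic and 34.5% of all promoters. A match is a string of letters and not a measured binding site.

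Over all sorted cells, cell-cycle genes were higher in the RTT library. The replication genes together went from 872 CPM in NTT to 1423 CPM in RTT, a log2 ratio of 0.71 (0.68 to 0.73). The mitotic genes went from 1037 to 2176 CPM, a log2 ratio of 1.07 (1.05 to 1.09). Of the 53 members, 9 replication and 17 mitotic genes were at least 2-fold higher and 0 were 2-fold lower, where 8.74% of the 9537 genes with at least 200 UMIs were 2-fold higher and 10.5% 2-fold lower. At 1.5-fold, 46 members were higher and 0 lower, with 22.0% of all genes higher and 18.0% lower. The median member had a log2 ratio of 0.77 for replication and 1.05 for mitosis, and the median of all genes was 0.09. UMIs of the mitotic list per UMI of the replication list were 1.19 in NTT and 1.53 in RTT. Without the 5% of cells with the most UMIs in each library, the log2 ratios were 1.30 and 1.86.

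Among replication genes, the G1/S regulators showed the largest combined ratio by role, 1.02 on the log2 scale. Ccne2, a cyclin E that starts S phase, went from 4.02 to 13.2 CPM (log2 ratio 1.71, 1.37 to 2.07), and E2f8, a repressor of E2F targets, had a log2 ratio of 1.18. The nucleotide supply genes followed at 0.87. Rrm2, the S-phase subunit of ribonucleotide reductase, went from 20.7 to 49.4 CPM, and Tyms, thymidylate synthase, from 26.4 to 60.6 CPM. Both were more than 2-fold higher in RTT, as was Tk1, thymidine kinase, with a log2 ratio of 1.15. The 6 MCM helicase genes had a combined log2 ratio of 0.74, from 0.38 for Mcm4 to 1.03 for Mcm6, with Mcm5 at 32.4 CPM in NTT and 54.7 CPM in RTT. Among the fork clamp and repair genes, Pcna stood apart from its neighbours: its 135 CPM in NTT and 142 CPM in RTT gave a log2 ratio of 0.07 (0.00 to 0.14), which lay below the median of all genes and turned negative when libraries were scaled by their median gene ratio, a shift of 0.09. Ung, the uracil glycosylase of the same role, had a log2 ratio of 1.36. Cdt1, which loads MCM and is destroyed once S phase begins, was among the least different at 0.32, and Gins2, part of the firing helicase, was at 1.15.

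Among mitotic genes, those of the spindle and cytokinesis had the largest combined ratio, 1.38 on the log2 scale over 9 genes. Stmn1, a microtubule destabiliser, went from 142 to 433 CPM (log2 ratio 1.60, 1.55 to 1.66). Anln, the anillin of the contractile ring, had a log2 ratio of 1.58, and Hmmr and Nusap1, both spindle proteins, had 1.45 and 1.44. These 4 genes were all more than 2-fold higher in RTT. The mitotic kinases and checkpoint genes had a combined ratio of 1.18, led by Birc5 (survivin), from 55.8 to 148 CPM, while Plk1, the Polo-like kinase, was at 0.73. Cdk1 with cyclins A2 and B2 had 1.13. Mki67, the proliferation marker that coats mitotic chromosomes, went from 74.3 to 160 CPM, and Top2a, topoisomerase II alpha, from 93.3 to 191 CPM. Smc4, a condensin subunit, differed less, at 0.56, than Smc2, its partner, at 1.23. The kinetochore genes had the smallest combined ratio, 0.48, since Cenpa was at 94.9 CPM in NTT and 89.8 CPM in RTT, a log2 ratio of -0.08 (-0.16 to 0.00), while Cenpf, another kinetochore protein, had 1.19.

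Most genes of the same pathway outside the set lay on the same side. Of 43 other S-phase genes with at least 200 UMIs, 10 were 2-fold higher in RTT and 0 lower, with a median log2 ratio of 0.76. The S-phase genes ran from Rad51ap1 (1.51) to E2f2 (-0.62, -0.82 to -0.43). Casp8ap2 of this list and Hjurp of the mitotic list, both at -0.18, also had intervals below 0. Of 48 other mitotic genes, 21 were 2-fold higher and 0 lower, with a median of 0.95, from Pbk (2.44), a mitotic kinase, and Kif2c (1.78), a microtubule depolymeriser, to Pttg1 (-0.99), the securin that holds back separase. The 26 genes of G1 control, most of which act before commitment to division, had a median of 0.01, with 5 higher and 3 lower. Tfdp2, an E2F partner, and Cdkn2c, a CDK4/6 inhibitor, had log2 ratios of 1.87 and 1.48. Btg2, an antiproliferative gene, went from 353 to 114 CPM, and Cdkn1a, the p21 inhibitor, from 327 to 159 CPM.

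The make-up of the libraries moved with these totals. TAM_cycling cells supplied 9.67% of all UMIs in NTT and 27.3% in RTT, NK_cells 6.76% and 0.825%, and TAM_C1q 0.699% and 40.8%. Splitting the difference in CPM by arithmetic, changed population shares carried 80.5% of the 550 CPM difference in replication genes and 53.3% of the 1140 CPM difference in mitotic genes. The remainder lay within populations. Ctsk_Macro, absent from NTT, was given its RTT level there, so its 17.6% of the replication and 10.7% of the mitotic difference fell to shares by construction. For TAM_cycling, the part from its share came to 119% of the replication and 83.3% of the mitotic difference, and the smaller NK_cells share took away 37.9% and 23.7%. Within TAM_cycling, a different level added 0.691% of the replication difference but 27.5% of the mitotic difference. The split rests on population names that these genes helped to set, and is a description of the 2 libraries.

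**Figure D2:**
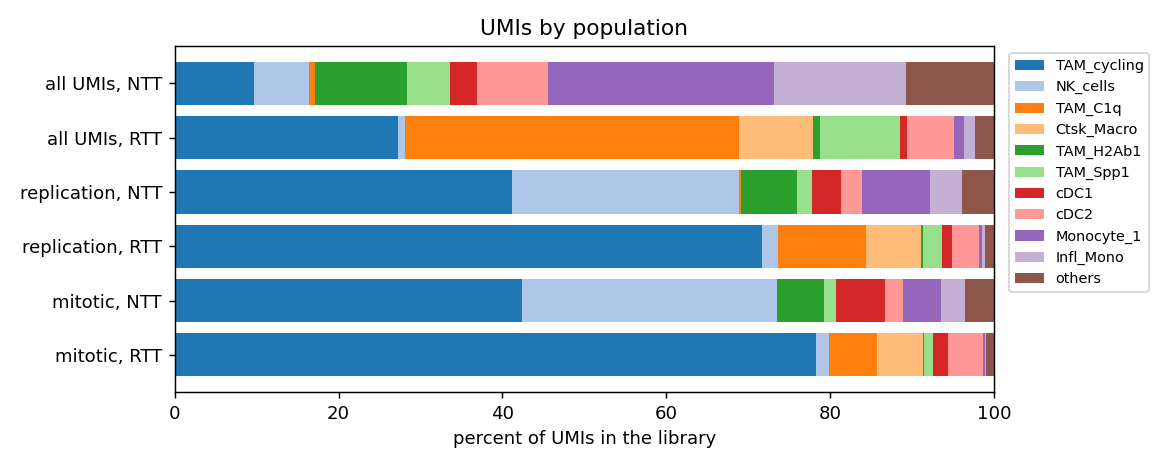
Stacked bars of the percent of all UMIs, of replication-gene UMIs and of mitotic-gene UMIs held by each population, for NTT and RTT. Of the replication and mitotic UMIs, NK_cells held 27.6% and 31.0% of the NTT UMIs and 2.01% and 1.65% of the RTT UMIs, while TAM_cycling went from 41.2% and 42.4% to 71.7% and 78.2%.

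With UMIs summed over cells, taking all macrophage populations together removed most of the replication difference and left part of the mitotic difference. Replication genes were at 1485 CPM in NTT and 1482 CPM in RTT macrophages, a log2 ratio of -0.00 (-0.04 to 0.03), and mitotic genes at 1749 and 2248 CPM, a log2 ratio of 0.36 (0.33 to 0.39). Ccne2 and Nusap1 were the 2 members at least 2-fold higher, 0 were 2-fold lower, and over all 8888 genes with at least 200 UMIs in these cells 4.61% were 2-fold higher and 6.18% lower. At 1.5-fold, 6 members were higher and 1 lower (Mcm2), where 14.0% of all genes were higher and 13.1% lower. Median members were at 0.11 and 0.25 against 0.06 over all genes. Of the replication members, 8 had intervals above 0 and 5 below, and of the mitotic members 18 above and 1 below, where 27.6% of all genes had intervals above 0 and 25.1% below. Outside TAM_cycling the ratios were small, 0.09 (0.02 to 0.16) for replication, at 441 and 470 CPM, and 0.04 (-0.03 to 0.11) for mitosis, at 442 and 455 CPM.

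The macrophage ratios depended on the cells with the most UMIs. TAM_cycling cells had a median of 18157 UMIs in NTT and 12029 in RTT, against 6997 and 8136 in other macrophages. They were 103 of 582 NTT macrophages (17.7%, 14.7 to 21.0) and 947 of 4009 RTT macrophages (23.6%, 22.3 to 25.0), yet 31.8% and 30.9% of macrophage UMIs. Leaving out the 5% of cells with the most UMIs in each library took out 63 TAM_cycling cells of NTT and 117 of RTT, and the macrophage log2 ratios became 0.63 for replication and 1.17 for mitosis. With each cell given equal weight they were 0.22 and 0.70.

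Within TAM_cycling the 2 lists parted. Replication genes had a log2 ratio of 0.01 (-0.03 to 0.04) and mitotic genes 0.46 (0.43 to 0.49), so that mitotic UMIs per replication UMI were 1.22 in NTT and 1.67 in RTT. Of the 6865 genes with at least 200 UMIs in these cells, 4.78% were 2-fold higher in RTT and 4.34% lower, and among members Ccne2 and Nusap1 were higher and 0 lower. At 1.5-fold, 8 members were higher and 1 lower (Mcm2 again), where 13.5% of all genes were higher and 9.32% lower. The median member was at 0.03 for replication and 0.35 for mitosis, with 0.09 over all genes. Intervals lay above 0 for 6 replication members and below 0 for 6, and above 0 for 17 mitotic members and below for 0, where 18.9% of all genes had intervals above 0 and 16.2% below. Without the 5% of cells with the most UMIs, the log2 ratios were -0.06 and 0.64, and without Stmn1, the mitotic member with the most UMIs, the mitotic ratio was 0.39.

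Replication members went in both directions within TAM_cycling. Mcm2 was at 137 CPM in NTT and 84.9 CPM in RTT (log2 ratio -0.70, -0.89 to -0.49), and Mcm5 at 176 and 154 CPM. Pcna was at 382 and 300 CPM, and Cdt1 had a log2 ratio of -0.35. These 4 genes were lower in RTT. Of the 6 MCM genes only Mcm6, at 188 and 215 CPM, had a ratio above 0. The origin licensing and firing genes combined had a log2 ratio of -0.04 (-0.18 to 0.11), with 3 of 4 genes above 0. Ccne2, at 18.4 and 41.9 CPM, Tyms (0.70), Ccne1 (0.53) and Rrm2 (0.47) were higher. Combined by role, the MCM genes were at -0.12 (-0.19 to -0.05) and nucleotide supply at 0.17 (0.09 to 0.24). All 6 mitotic roles had combined ratios above 0, from 0.35 for mitotic chromosomes to 0.64 for spindle and cytokinesis. Nusap1 was at 103 CPM in NTT and 223 CPM in RTT (log2 ratio 1.12, 0.91 to 1.33), Stmn1 at 716 and 1219 CPM, and Mki67 at 357 and 497 CPM. Top2a had the smaller ratio of 0.26. Not every mitotic gene differed: Plk1 had -0.05 (-0.34 to 0.25) and Cenpe, a kinetochore motor, 0.03 (-0.15 to 0.21).

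**Figure D3:**
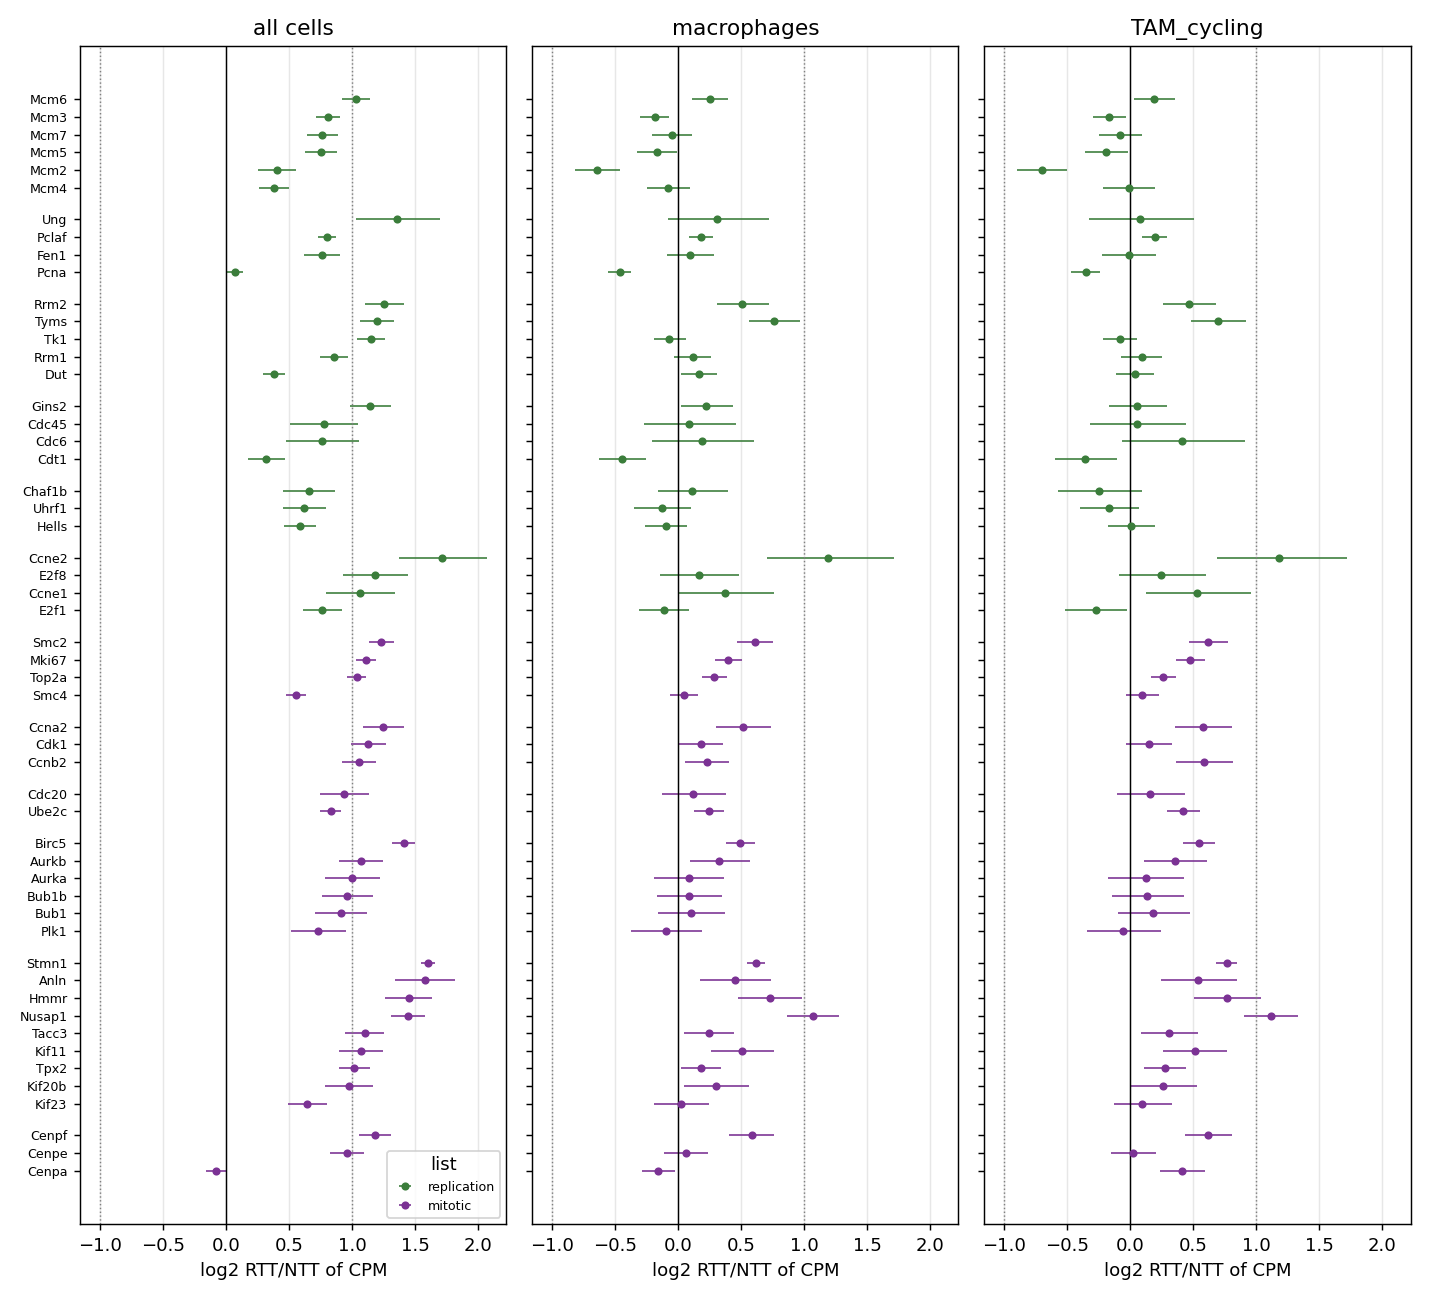
Log2 ratio of RTT over NTT for each of the 53 members, by role, in all cells, macrophages and TAM_cycling, with 95% binomial intervals. In all cells nearly every point lies right of 0, while in TAM_cycling the replication members lie on both sides (6 intervals above 0 and 6 below) and the mitotic members at or above 0 (17 above, 0 below).

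Other pathway genes in TAM_cycling had a median of 0.29 over 42 S-phase genes, of which 0 were 2-fold higher or lower, and 0.40 over 48 mitotic genes, of which 4 were 2-fold higher and 0 lower. The other S-phase genes thus stood above the median of the replication members in the same cells. Pbk had a log2 ratio of 1.55 and Cdc25b, a phosphatase that activates CDK1, 1.30. Of 24 genes of G1 control, 1 was higher and 1 lower: Cdkn1a went from 55.8 to 113 CPM, opposite to its difference over all cells, and Ccnd2, cyclin D2, from 233 to 81.7 CPM.

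To compare single cells at one depth, each cell was thinned to 2000 UMIs, and a cell with at least 3 UMIs of a list was called high for it. This left out 107 NTT and 63 RTT cells with fewer UMIs. Replication-high cells were 8.30% of NTT and 21.3% of RTT cells, a difference of 13.0 percentage points (11.5 to 14.5). Mitotic-high cells were 7.60% and 19.2%, a difference of 11.6 points (10.1 to 13.0). Without thinning the shares were 27.6% and 55.1% for replication and 22.1% and 41.7% for mitosis. NTT neutrophils gave the background: 0 of 88 were replication-high (limit of a count of 0, 3.41%), and 1 of 88 (1.14%) was mitotic-high, at a median of 4141 UMIs before thinning. Of the RTT cells of that name, 1 of 24 (4.17%) was replication-high and 3 of 24 (12.5%) were mitotic-high, at a median of 4632 UMIs. The limit is a cut on a scale, and 10.7% of NTT and 15.1% of RTT cells sat at 2 or 3 replication UMIs.

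Cells high for both lists were 116 of 2868 in NTT (4.04%) and 607 of 4777 in RTT (12.7%). In NTT, 51 of them were NK_cells and 51 were TAM_cycling, with 7 cDC1. In RTT, 507 (83.5%) were TAM_cycling, 31 Ctsk_Macro, 27 cDC2, 14 NK_cells and 12 cDC1. Thus NK_cells and TAM_cycling supplied equal numbers of such cells in NTT, and macrophages supplied most in RTT. Cells high for both had more UMIs, with median UMIs before thinning of 14128 in NTT and 12700 in RTT, against 5319.5 and 7530 in cells high for neither. Doublets were not called, and their part was not tested.

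**Figure D4:**
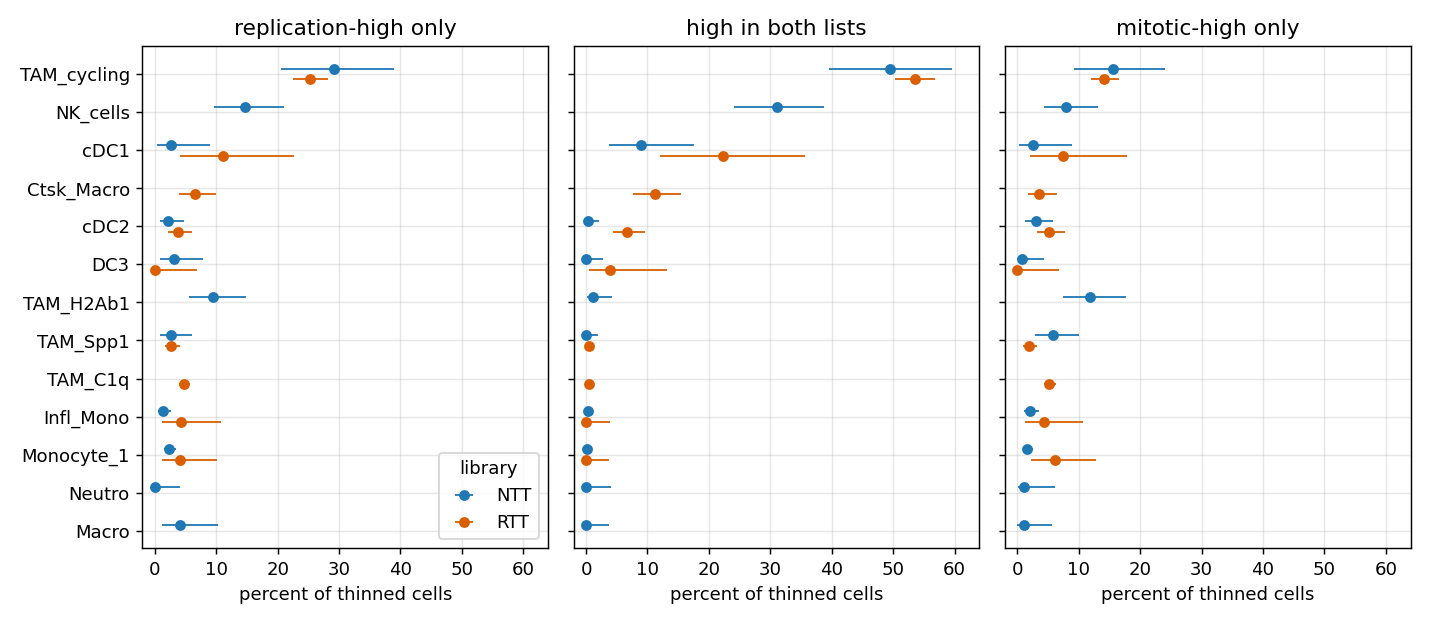
Share of cells (percent) high for the replication list only, for both lists and for the mitotic list only, by population and library. High means at least 3 of 2000 thinned UMIs. Bars are 95% Clopper-Pearson intervals, for populations with at least 50 thinned cells in the library. TAM_cycling is at 29.1% and 25.2% for replication only, 49.5% and 53.5% for both, and 15.5% and 14.1% for mitosis only. In each panel cDC2 and cDC1 are higher in RTT than in NTT. The TAM_cycling totals, not drawn, are 78.6% and 78.8% replication-high and 65.0% and 67.7% mitotic-high.

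Among macrophages, replication-high cells were 18.8% in NTT and 23.2% in RTT, a difference of 4.42 points (0.80 to 7.69). Mitotic-high cells were 17.5% and 20.4%, and that interval held 0 (-0.68 to 6.01). Cells high for both were 9.20% and 13.8%, a difference of 4.61 points (1.77 to 6.98). In TAM_cycling, 51 of 103 NTT cells (49.5%) and 507 of 947 RTT cells (53.5%) were high for both, a difference of 4.02 points (-5.99 to 14.0). Cells high for replication only were 29.1% and 25.2%, and for mitosis only 15.5% and 14.1%. The median TAM_cycling cell had 6 thinned replication UMIs in both libraries, and 4 thinned mitotic UMIs in NTT against 8 in RTT. The higher mitotic level of RTT therefore appeared as more mitotic UMIs in the median cell, while the share past the limit of 3 differed by 2.64 points (-6.41 to 12.7). Outside TAM_cycling, 0.423% of NTT and 1.42% of RTT macrophages were high for both.

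**Figure D5:**
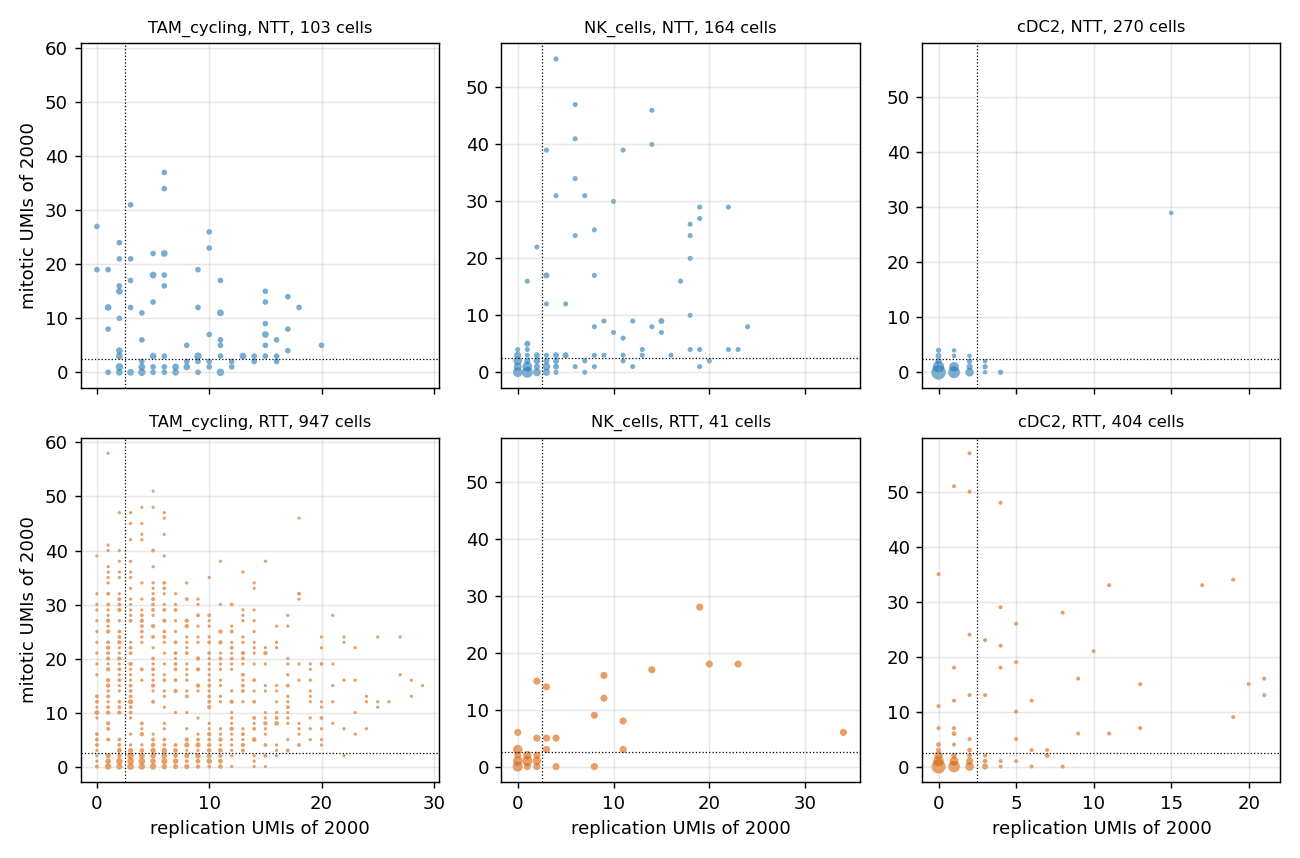
Thinned replication UMIs against thinned mitotic UMIs per cell (of 2000) in TAM_cycling, NK_cells and cDC2 by library. Point area grows with the square root of the share of cells at that pair, and dotted lines mark the limit of 3. In cDC2 the field above both lines holds 1 of 270 NTT cells and 27 of 404 RTT cells. In TAM_cycling it holds 51 of 103 and 507 of 947, and in NK_cells 51 of 164 and 14 of 41.

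Type 2 conventional dendritic cells (cDC2) present antigen to CD4 T cells. With UMIs summed over cells, they had the highest ratios for both lists among populations with at least 50 cells in both libraries. Their replication genes went from 264 to 817 CPM (log2 ratio 1.63, 1.48 to 1.78) and mitotic genes from 263 to 1605 CPM (log2 ratio 2.61, 2.47 to 2.75). The population had 279 NTT and 413 RTT cells, with median UMIs of 5874 and 5861. Markers of other cell types moved with it: the 5 monocyte markers were at 6802 CPM in NTT and 1067 CPM in RTT, the 6 NK markers at 1668 and 863 CPM, and the 8 macrophage markers at 1008 and 1822 CPM, while the 6 cDC markers were at 883 and 1271 CPM. The part of these differences in the result was not tested. Intervals were above 0 for 23 of 26 replication and 26 of 27 mitotic members and below 0 for 0, where 18.5% of all genes detected in these cells had intervals above 0 and 16.3% below. The members with intervals holding 0 were Pcna, Cdc6, Ung and Cenpa.

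Many mitotic genes had few UMIs in NTT cDC2 and many in RTT cDC2. Ube2c, the ubiquitin carrier of the anaphase-promoting complex, had 5 UMIs in NTT and 258 in RTT (log2 ratio 5.11, 3.86 to 6.74). Birc5 had 7 and 260 UMIs, and Ccnb2, cyclin B2, 1 and 112. Stmn1 had 24 and 735 UMIs, which is 14.1 and 287 CPM. These counts are small in NTT, where 7 replication and 14 mitotic members had at most 3 UMIs. Cdc45, part of the firing helicase, and Anln had 0 UMIs in NTT and 13 and 23 in RTT. Of the replication members, Pclaf, a PCNA-binding factor, had 7 and 315 UMIs (log2 ratio 4.91, 3.85 to 6.23). In contrast, Pcna had 149 and 242 UMIs, a log2 ratio of 0.12 (-0.18 to 0.42), and Cenpa 180 and 264, a log2 ratio of -0.03 (-0.31 to 0.25).

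A small group of RTT cDC2 cells was high for both lists. After thinning, 1 of 270 NTT cells (0.370%) and 27 of 404 RTT cells (6.68%) were high for both lists, a difference of 6.31 points (3.65 to 9.20). The 27 cells had a median of 9990 UMIs, against 5796 in RTT cDC2 cells high for neither. Their 6 cDC markers summed to 1531 CPM against 1240 CPM in the other 386 RTT cDC2 cells, but their 8 macrophage markers summed to 3407 against 1633 CPM, and their 5 neutrophil markers to 552 against 38.1 CPM. In the median cell the macrophage markers were at 740 CPM in the 27 and 790 CPM in the others, so the medians did not share the direction of the sums. When the 19 NTT and 66 RTT cDC2 cells with over 1000 CPM of C1q genes and Apoe were left out, 1 and 23 cells high for both remained. Giving each cell equal weight, the log2 ratios of cDC2 were 1.14 and 2.06.

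In cDC1 the log2 ratio was 1.13 (0.98 to 1.29) for replication and 1.26 (1.15 to 1.36) for mitosis. Intervals were above 0 for 11 replication and 22 mitotic members and below 0 for 0, where 7.86% of all genes had intervals above 0 and 8.10% below. Stmn1 was at 184 CPM in NTT and 763 CPM in RTT, Birc5 at 88.7 and 303 CPM, and Top2a at 144 and 390 CPM. Leaving out the 5% of cells with the most UMIs in each library, 5 NTT and 0 RTT cDC1 cells, gave 1.90 and 2.52. The same step gave 1.60 and 2.53 in cDC2, so cDC1 then had the higher replication ratio. The 5 monocyte markers were at 3500 CPM in NTT and 1116 CPM in RTT cDC1, and the 6 cDC markers at 928 and 1017 CPM, and their part was not tested. Unlike cDC2, cDC1 had many such transcripts already in NTT. High for both lists were 7 of 78 NTT cells (8.97%) and 12 of 54 RTT cells (22.2%), a difference of 13.2 points (0.91 to 26.8). DC3 cells had a log2 ratio of 0.97 for replication and 2.17 for mitosis, but 0 of 128 NTT and 2 of 52 RTT cells were high for both, and their 8 macrophage markers went from 896 to 5096 CPM.

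In NK_cells both ratios lay near 0. The log2 ratio was -0.04 (-0.13 to 0.05) for replication and -0.13 (-0.21 to -0.05) for mitosis, with 178 NTT and 51 RTT cells. Intervals were above 0 for 2 replication members (Tyms, Rrm2) and below 0 for 2 (Mcm4, Mcm7), and above 0 for 1 mitotic member (Hmmr) and below for 6, where 9.60% of all genes had intervals above 0 and 10.1% below. High for both were 51 of 164 NTT cells (31.1%) and 14 of 41 RTT cells (34.1%). The 51 NTT cells had 6773 CPM of the 7 T-cell markers and 6501 CPM of the 6 NK markers, none at 0, so markers of both kinds of lymphocyte were present under this name. Over all NK_cells, T-cell markers went from 7108 CPM in NTT to 4923 CPM in RTT and NK markers from 7499 to 3870 CPM. The 8 macrophage markers went from 368 to 3689 CPM, with 324 and 504 CPM in the median cell. The part of these marker differences was not tested.

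Monocytes had log2 ratios of 0.61 (0.45 to 0.76) and 0.86 (0.69 to 1.02), from 243 to 370 CPM for replication and 179 to 326 CPM for mitosis. High for both were 3 of 1549 NTT and 0 of 196 RTT monocytes, with a limit of 1.53% for the count of 0. In Infl_Mono, the 8 macrophage markers went from 8343 to 35362 CPM and the 5 monocyte markers from 14516 to 5023 CPM. In Monocyte_1, these marker sets went from 18859 to 17742 CPM and from 7511 to 4524 CPM. The part of these marker differences was not tested. TAM_Spp1 cells had ratios of 0.09 (-0.08 to 0.27) and -0.32 (-0.51 to -0.13), which leaned on single members. Cenpa went from 152 to 33.3 CPM and Pcna from 139 to 67.9 CPM. Intervals lay above 0 for 7 replication and 6 mitotic members and below 0 for 2 of each list. The matching share of all genes was not counted in these cells. TAM_H2Ab1 cells, antigen-presenting macrophages, had 530 and 408 CPM of replication genes and 524 and 352 CPM of mitotic genes, with 36 cells in RTT. In RTT, 31 of 278 Ctsk_Macro cells (11.2%) and 8 of 1995 TAM_C1q cells (0.401%) were high for both, and the Ctsk_Macro cells had a median of 13736.5 UMIs.

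Over the 21 population and library pairs with at least 50 cells, the genes outside the set whose level was most like that of the replication list were Fignl1, a DNA repair factor (Pearson r 0.98), Diaph3, Cenph, Ube2t and Hist1h3c, an S-phase histone. For the mitotic list they were Esco2, a cohesin acetyltransferase (0.97), Knl1, Sgo2a, Diaph3 and Ska1, of which Knl1 and Ska1 are kinetochore proteins and Sgo2a protects cohesin. Diaph3 was on both lists. The pairs share 2 libraries, so these values are a description.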

How the data were processed

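CD45+ cells of NTT and RTT tumours were profiled with the 10x Genomics 3′ kit, as a single library per condition. The authors aligned reads and made the deposited UMI counts with Cell Ranger 6.1.1 on mm10, and kept cells above 1000 genes. They kept genes found in each of several experiments and took out ribosomal and mitochondrial genes. Before clustering, they regressed out the gap between the G2M and S phase scores of each cell, a contrast like that of mitotic and replication genes. They then integrated the cells and named the populations. The fewest genes in a cell over the deposited genes was 862. No column of the authors' comparisons was used.

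Members, gene lists and promoter words were chosen with earlier results of these data known. Named genes were the members themselves, and of each further list those with the highest and lowest ratio. UMIs were summed per library and population, without a count model because each group is 1 library. Genes were called at 2-fold with at least 200 UMIs over both libraries. Intervals at 95% were exact binomial for ratios, Poisson for levels, Clopper-Pearson for shares and Newcombe for differences of shares, and a count of 0 was given a limit of 3 counts. Cells were thinned to 2000 UMIs with seed 1. Similar profiles used log2(CPM + 10) of genes with at least 500 UMIs. Python 3.11.15, NumPy 2.4.6, SciPy 1.17.1, pandas 2.3.3 and Matplotlib 3.10.9 were used, and the calculations were tested on simulated data. Alternatives covered scaling, cell weights, depth, cells kept, thresholds and list summaries.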

Additional observations from a re-analysis of the deposited data

Results flagged for a closer look

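Mcm3, a subunit of the MCM helicase, had a log2 ratio of RTT over NTT of -0.18 in macrophages and 1.82 in dendritic cells. It was flagged because the 2 directions were opposite with UMIs summed over cells, and no other cell weighting is given for this gene. The difference between the cell classes was not tested, since each class had 1 library per condition.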

How the results depend on the processing

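No paired analysis was possible because each condition was 1 library, and for the same reason no replicate could be left out. Log2 ratios are given in the order all cells (replication, mitosis), macrophages (replication, mitosis) and TAM_cycling (replication, mitosis). The mean of per-cell CPM gave 1.03, 1.51, 0.22, 0.70, -0.078 and 0.53. Scaling by the median gene ratio gave 0.61, 0.98, -0.059, 0.31, -0.081 and 0.37. Leaving out the 5% of cells with the most UMIs gave 1.30, 1.86, 0.63, 1.17, -0.056 and 0.64, and thinning to 2000 UMIs gave 1.02, 1.49, 0.21, 0.68, -0.046 and 0.54. Cells with at least 1500 genes gave 0.63 and 0.98 over all cells. The median over members gave 0.77 for replication over all cells, 0.11 and 0.25 in macrophages and 0.35 for mitosis in TAM_cycling. Without Stmn1, an alternative chosen after seeing the data, mitosis was at 0.96, 0.30 and 0.39 in the 3 sets of cells. The replication ratio in macrophages ran from -0.059 to 0.63 over these settings, so no direction is given for it.

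The difference in replication-high cells over all cells was 15.2 points at a limit of 2 UMIs, 9.53 points at 5, 8.35 points after thinning to 1000 UMIs and 27.5 points without thinning. Without thinning, mitotic-high cells differed by 19.6 points over all cells and -2.32 points in macrophages. At 1.5-fold in place of 2-fold, 46 members were past the limit over all cells, 7 in macrophages and 9 in TAM_cycling. The share of the CPM difference carried by population shares was 73.6% to 92.3% for replication and 44.7% to 62.4% for mitosis under other weights. In cDC2, thinning gave 1.18 and 2.15, and leaving out the member with the most UMIs gave 2.03 and 2.40. Without the 5% of cells with the most UMIs, cDC2 had 1.60 and 2.53 and cDC1 had 1.90 and 2.52. Depth limits the counts in cDC1, DC3 and RTT monocytes, and thinning to 2000 UMIs leaves few UMIs of a list per cell.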
